A study of Mus musculus with 22 samples.

Results

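Chromosome 19, the smallest mouse autosome, is joined to no other chromosome by the Robertsonian translocations of these mice. Its windows of 50 kb that start at 13 Mb or further from the centromere numbered 969 of the 54520 windows of mm10, from 13000001 to 61431566. The region was chosen by its γH2AX values, because many of its 1 Mb bins had more γH2AX in every translocation carrier than in C57BL/6J (B6), so that contrast is described and not tested. The last 2 windows held no counts and 967 were used, of which 631 overlapped at least 1 of 381 protein-coding genes.

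γH2AX is histone H2AX phosphorylated at DNA breaks and, in spermatocytes, over chromosomes or stretches of them that have not synapsed with a homologue. In the pachytene stage it coats X and Y in the sex body, where genes are silenced. H3.3 is a histone variant that is laid down outside DNA replication, at transcribed genes and, in spermatocytes, on the silenced sex chromosomes. In mice heterozygous for a Robertsonian translocation, a fused chromosome has to pair with unfused homologues.

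Chromatin immunoprecipitation with sequencing was done on whole testis. γH2AX was measured at 4 weeks of age in 3 libraries each of 3Rb, 1Rb_M and 1Rb_P and in 1 library of B6. The 3Rb mice, heterozygous for 3 translocations, were F1 of B6.SPRET7MOLF12 and RBF/Dnj. The 1Rb_M mice, heterozygous for 1 translocation that joins 8 and 12, were F1 of CBy.RBF-Rb(8.12)5Bnr/J and B6.SPRET7MOLF12. The 1Rb_P mice carried the same translocation and were F1 of C57BL/6J and CBy.RBF-Rb(8.12)5Bnr/J. B6 mice were the C57BL/6J control. H3.3 was measured at 6 weeks in 3 libraries each of 3Rb, 1Rb (the 1Rb_M cross) and Cg, the B6.SPRET7MOLF12 control that carries no translocation. Single inputs came from the 1Rb_M cross by its title, from Cg and from B6, and none of them from 3Rb. The 1Rb_M and B6 inputs were of 4 weeks and the Cg input of 6 weeks, so the pooled inputs mix both ages. The crosses have different parental strains, so effects of strain and of translocation cannot be told apart. The B6 γH2AX library carries another supplier name for the same antibody clone.

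The windows held 652714 to 788057 counts in the carrier γH2AX libraries, 272376 in the B6 γH2AX library, 728672 to 2292072 in the H3.3 libraries and 206688 to 895388 in the inputs. The median window had 276 counts in B6, a counting error of 6.02%. X, which γH2AX coats in the sex body, took 17.7 to 18.9% of γH2AX counts in 7 carrier libraries, 12.3% in 1Rb_M replicates 1 and 2 and 20.6% in B6, against 3.16 to 3.17% in the inputs. In whole testis, fewer cells of a stage and less mark per cell cannot be told apart. The labels number the replicates but do not tie them to separate mice. The p-values here therefore describe spread among libraries, which may be technical.

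Promoters show how different the sequence around windows on either side of B6 can be. The 3 promoters below run from 250 bases before to 50 after the start of the gene in RefSeq (GRCm38.p6) and lie inside named windows, with each CpG in capitals. Cox15 and Olfr1474 lie in windows where all 9 carriers were above B6, and Fam160b1 in a window where all 9 were below.
Cox15, chr19:43752951-43753250, minus strand: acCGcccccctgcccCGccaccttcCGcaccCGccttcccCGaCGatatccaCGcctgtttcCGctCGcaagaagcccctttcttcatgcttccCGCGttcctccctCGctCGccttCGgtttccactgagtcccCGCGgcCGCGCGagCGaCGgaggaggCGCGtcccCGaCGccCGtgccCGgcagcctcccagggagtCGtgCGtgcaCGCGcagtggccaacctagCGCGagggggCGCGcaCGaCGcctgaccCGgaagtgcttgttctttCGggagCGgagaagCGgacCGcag
Olfr1474, chr19:13470722-13471021, plus strand: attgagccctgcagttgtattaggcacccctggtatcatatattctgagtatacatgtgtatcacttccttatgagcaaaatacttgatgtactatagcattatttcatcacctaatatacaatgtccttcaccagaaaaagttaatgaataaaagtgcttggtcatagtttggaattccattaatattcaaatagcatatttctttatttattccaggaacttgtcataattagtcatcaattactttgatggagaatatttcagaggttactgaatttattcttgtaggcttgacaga
Fam160b1, chr19:57360759-57361058, plus strand: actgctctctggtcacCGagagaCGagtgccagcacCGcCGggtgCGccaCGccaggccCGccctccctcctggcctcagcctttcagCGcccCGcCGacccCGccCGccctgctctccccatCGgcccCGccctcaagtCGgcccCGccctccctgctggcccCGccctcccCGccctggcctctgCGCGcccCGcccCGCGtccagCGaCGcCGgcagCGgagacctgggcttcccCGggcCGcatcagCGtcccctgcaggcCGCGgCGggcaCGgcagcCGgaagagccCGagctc
The Cox15 promoter, of a heme A synthase needed for cytochrome c oxidase, held 42 CpG at 70.7% GC. The promoter of Olfr1474, an olfactory receptor, held 0 CpG at 32.0% GC, and that of Fam160b1 held 36 CpG at 78.3% GC. A CpG-rich and a CpG-free promoter thus lay in windows above B6, and a CpG-rich promoter in a window below it. Over 339 genes of chromosome 19 beyond 13 Mb with a promoter sequence, the median was 57.3% GC, against 56.7% over 10434 genes of the other 12 unjoined autosomes beyond 13 Mb. Within chromosome 19 it was 57.5% for 148 promoters in windows with all 9 carriers above B6 and 57.3% for the other 191. The median number of CpG per promoter was 15 on chromosome 19 and 14 on the other 12 autosomes. Within chromosome 19 it was 16.5 in windows with all 9 carriers above B6 and 14 in the others. These differences were not tested.

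More γH2AX than in B6 was spread along most of chromosome 19 beyond 13 Mb, in bins with few genes and in bins with many. Values are log2 ratios of a library to the pooled inputs, with the mean of the 13 unjoined autosomes set to 0. The summed level was 0.094, 0.116 and 0.089 in 3Rb, 0.046, 0.042 and 0.103 in 1Rb_M, and 0.082, 0.098 and 0.087 in 1Rb_P, against -0.016 in B6. All 9 carriers lay above B6, and the lowest of them were the 1Rb_M replicates 1 and 2 with the low share on X. The part of that low share in their level was not tested.

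**Figure D1:**
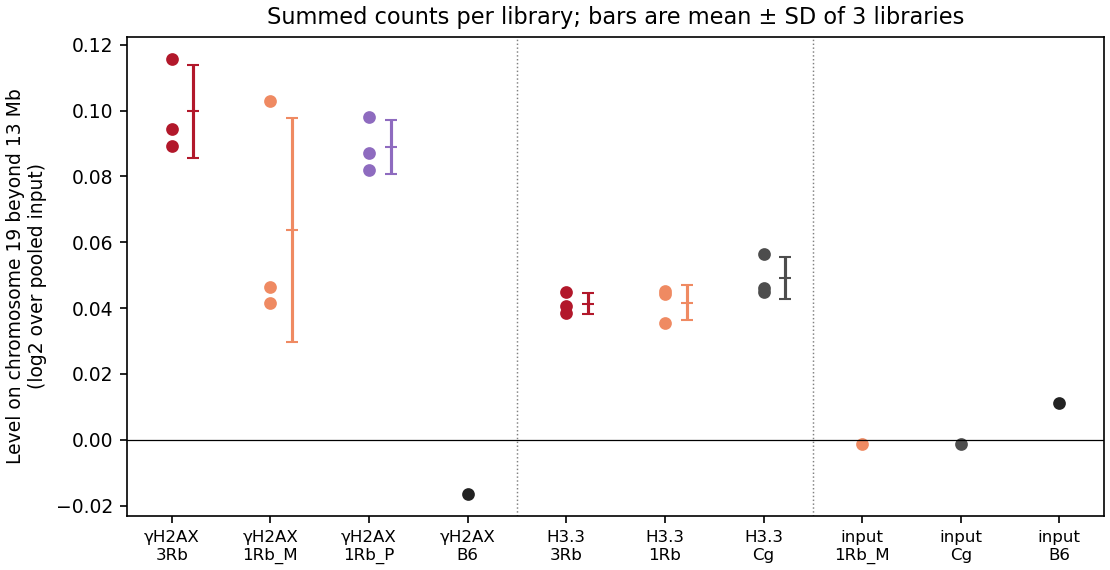
Level of chromosome 19 beyond 13 Mb in each library, as the log2 ratio of its summed counts to the pooled inputs with the unjoined autosomes at 0. Points are libraries and bars the mean ± SD of 3 libraries; the γH2AX carriers lie between 0.042 and 0.116, the B6 library at -0.016 and the H3.3 libraries between 0.035 and 0.056.

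In 29 of 49 bins of 1 Mb (59.2%), all 9 carriers were above B6, and in 0 bins were all 9 below. The same pattern held for 15.1% of 1395 bins of the other 12 unjoined autosomes beyond 13 Mb, and 15.6% of those bins had all 9 carriers below B6. The remaining 20 bins were mixed, and 45 of the 49 had a mean of carriers above B6. The median bin difference was 0.10, and the 29 bins ranged from 0.053 to 0.228. All 9 differences share the single B6 library, so they are not 9 independent comparisons.

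The 29 bins lay mostly side by side: 25 of them formed 6 runs of at least 2 bins. The longest run spanned 21 to 31 Mb, 10 bins with a mean difference of 0.11 and 60 protein-coding genes. Its highest window overlapped Mamdc2, which encodes a secreted proteoglycan. The runs at 36 to 40 Mb and at 52 to 56 Mb held 4 bins each, both with a mean difference of 0.17. Their highest windows overlapped Hectd2, a ubiquitin ligase, and Shoc2, a scaffold of Ras signalling. The run at 14 to 17 Mb averaged 0.12 over 3 bins, with its highest window in Vps13a, which encodes a lipid transfer protein. The runs at 45 to 47 Mb and 48 to 50 Mb averaged 0.17 and 0.12 over 2 bins each. Fbxw4, an F-box protein of ubiquitin ligases, held the highest window of the first, and Sorcs3, a sortilin-related receptor, that of the second. These 6 runs cover gene-poor stretches, such as 2 genes in 48 to 50 Mb, and gene-rich ones, such as 41 genes in 45 to 47 Mb.

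The bin at 45 to 46 Mb had the highest difference, 0.228. Its level was 0.037, 0.079 and 0.021 in 3Rb, 0.063, -0.022 and 0.157 in 1Rb_M, and 0.155, 0.180 and 0.094 in 1Rb_P, against -0.144 in B6. The 1Rb_M input exceeded the B6 input by 0.081 in this bin, and its part in the difference was not tested. The bin at 36 to 37 Mb followed with 0.217, its level being 0.206, 0.211 and 0.165 in 3Rb, 0.104, 0.079 and 0.196 in 1Rb_M, 0.142, 0.166 and 0.150 in 1Rb_P, and -0.059 in B6. No carrier reached down to B6 in either bin. In the bin at 27 to 28 Mb, which holds Rfx3, a transcription factor of cilia genes, the level was 0.375, 0.380 and 0.338 in 3Rb, 0.156, 0.174 and 0.258 in 1Rb_M, 0.231, 0.279 and 0.275 in 1Rb_P, and 0.072 in B6. There the 3Rb libraries were the highest, and again no carrier overlapped B6.

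The mean of carriers showed little or no excess from 17 to 21 Mb. The 4 bins there differed by -0.0073 to 0.012, and 5 of 9 carriers were above B6 in each. All 3Rb libraries were above B6 in each of these bins, and the 1Rb libraries lay on both sides of it. The 3Rb means were -0.016, 0.124, 0.131 and 0.069, against -0.077, 0.024, 0.055 and 0.0031 in B6. The 1Rb_M means were -0.094, -0.034, -0.041 and -0.049, and the 1Rb_P means -0.121, 0.019, 0.052 and 0.0068. Toward the end of the chromosome, the bin at 58 to 59 Mb differed by -0.022 with 2 of 9 carriers above B6, and the last, incomplete bin from 61 Mb by -0.053 with 3 above. That last bin had the highest level of B6, 0.351, and carriers between 0.090 and 0.385. The 13 Mb boundary did not mark a step: the bin just outside it, 12 to 13 Mb, had all 9 carriers above B6 by 0.13, and the bin just inside, 13 to 14 Mb, had 8 of 9 above by 0.15. Next to the centromere, from 3 to 7 Mb, bins differed by -0.11 to -0.092 with at most 1 carrier above B6.

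**Figure D2:**
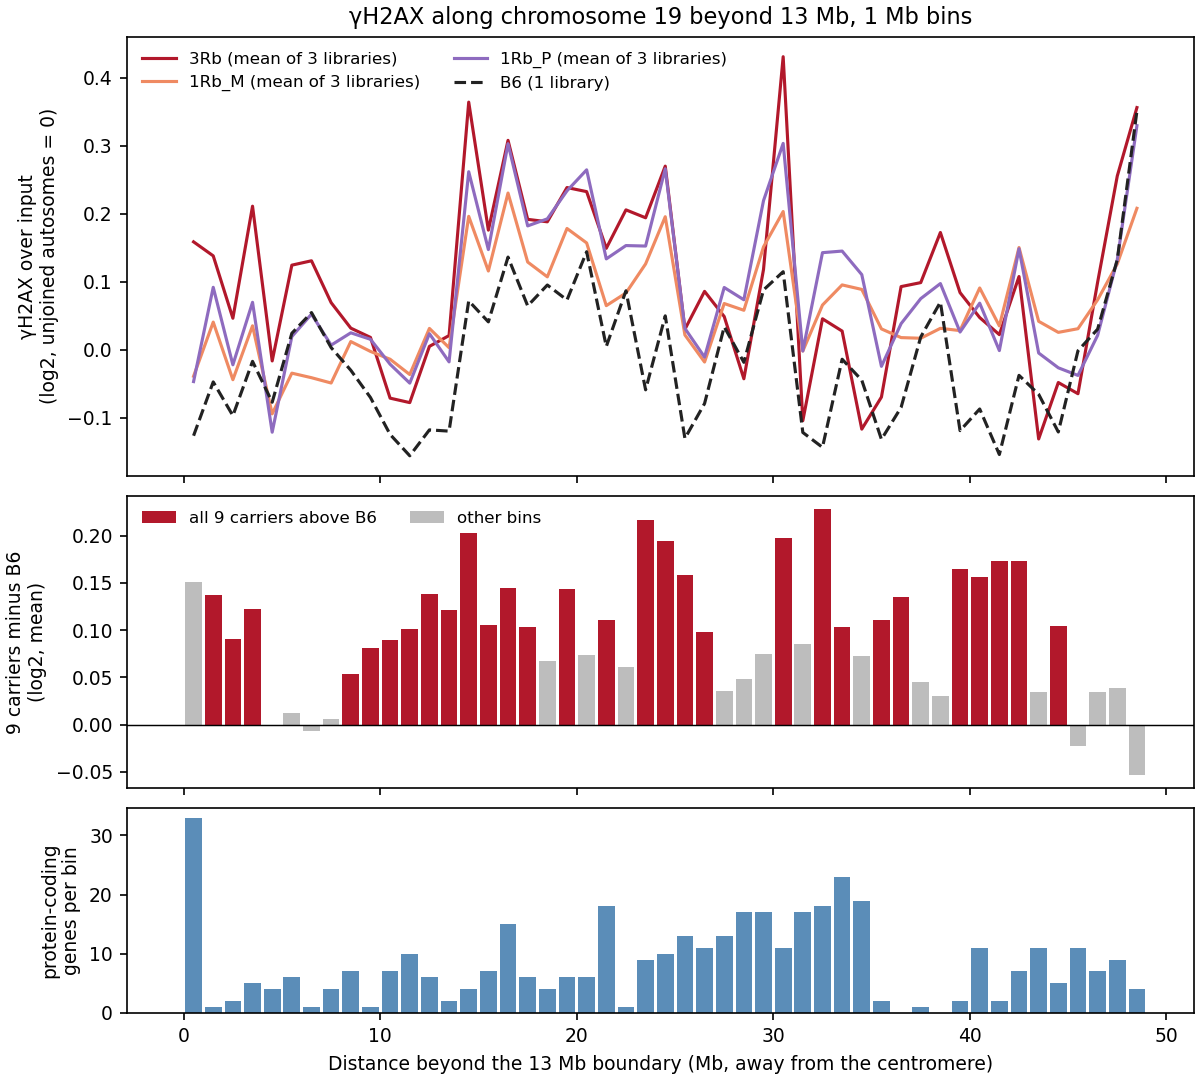
γH2AX in 1 Mb bins against distance beyond 13 Mb on chromosome 19. The upper panel gives the mean log2 level over input of 3Rb, 1Rb_M and 1Rb_P and the single B6 library, the middle panel the mean of 9 carriers minus B6 with the 29 bins where all 9 were above in red, and the lower panel the protein-coding genes per bin. The red bins form stretches in gene-poor and gene-rich parts alike.

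Single windows and single libraries are described next. The windows make up the bins and all libraries are set against the same B6 library, so these values are not independent of the bins. All 9 carriers were above B6 in 396 of 967 windows (41.0%) and below it in 43 (4.45%), against 15.1% above and 18.4% below of 27727 windows of the other 12 unjoined autosomes. The median window difference was 0.10, with quartiles of 0.0047 and 0.19, against -0.019 elsewhere. By library, 3Rb had 42, 45 and 45 bins of 49 above B6, 1Rb_M had 39, 40 and 40, and 1Rb_P had 41, 45 and 44, against 43.5 to 57.1% of bins on the other 12. The median window difference of a library was 0.063 to 0.125 on chromosome 19 and -0.088 to 0.092 on the other 12. Chromosome 13 came nearest, with 31.5% of its bins having all 9 carriers above B6 and a median window difference of 0.051.

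**Figure D3:**
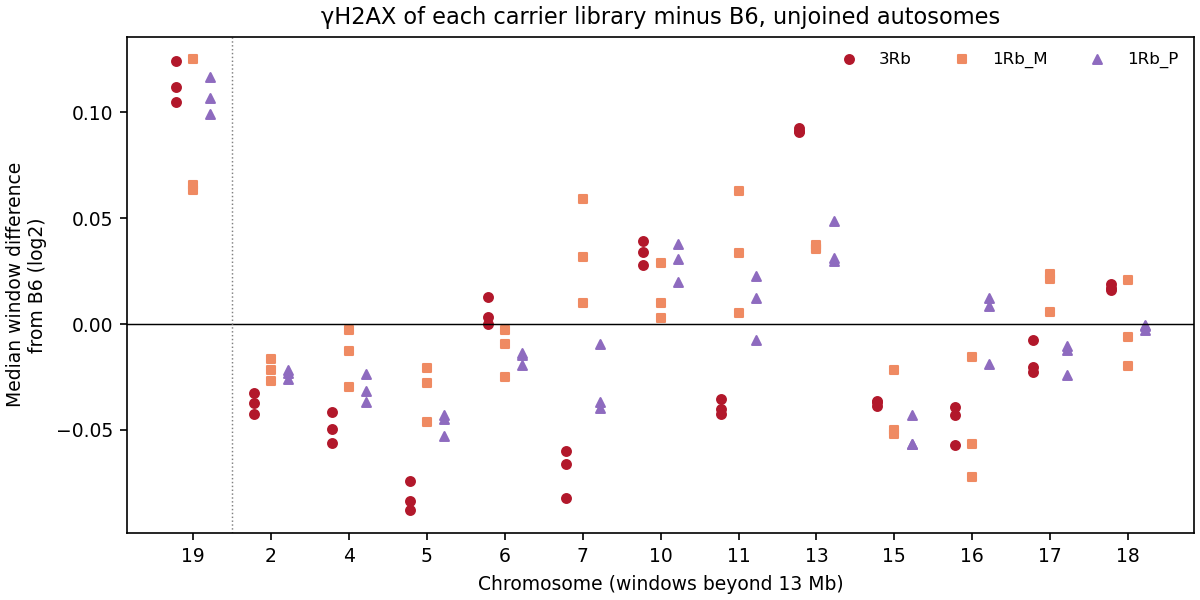
Median window difference from B6 (log2) of each of 9 carrier libraries, for windows beyond 13 Mb of chromosome 19 and of the other 12 unjoined autosomes. Each point is a library; on chromosome 19 all 9 lie at 0.063 or above, and on chromosome 13 the 3Rb libraries come within that range.

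Against the other 12 unjoined autosomes pooled, the excess was present in every class of gene number. Chromosome 19 beyond 13 Mb had 8.29 protein-coding genes per Mb, with 47.3% of its bases inside gene spans against 41.9% on the other 12. Chromosome 15 had 8.26 genes per Mb and 4.40% of its bins with all 9 carriers above B6, and chromosome 10 had 8.54 and 28.0%. Among bins with 0 to 4 genes, the share with all 9 carriers above B6 was 52.9% on chromosome 19 (9 of 17 bins), against 78 of 558 bins on the others. Among bins with 5 to 9 genes it was 71.4% (10 of 14) against 20.5%, and among those with 10 to 19 genes 56.3% (9 of 16) against 14.7%. Only 2 bins of chromosome 19 had 20 or more genes, and 1 of them had all 9 above, against 9.60% elsewhere. Weighted to the gene classes of chromosome 19, the others gave 15.9%, which left a gap of 43.3 percentage points. Taken chromosome by chromosome, the highest share on another chromosome was 36.2% with 0 to 4 genes (chromosome 10), 46.4% with 5 to 9 (chromosome 13) and 29.4% with 10 to 19 (chromosome 18). In the class of 20 or more genes chromosome 13 reached 57.1% (4 of 7 bins), above the 1 of 2 bins of chromosome 19.

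Windows, whose counts make up the bins, were put in gene classes too. All 9 carriers were above B6 in 40.8% of windows with no gene, 41.2% of those with 1 to 2 and 37.8% of those with 3 or more on chromosome 19, against 14.3%, 16.4% and 10.1% on the other 12. Within chromosome 19 the rank correlation of the bin difference with gene number was 0.16 over 49 bins, with the share of bases in genes 0.019 and with the distance along the chromosome -0.046. It was -0.0093 with promoter GC over 46 bins and 0.22 with the H3.3 level of Cg, and 0.23 with the difference of the 1Rb_M input from the B6 input. These bins share libraries, depth and neighbours, and the other 12 chromosomes ranged from -0.35 to 0.28 for gene number. The median bin among the 29 held 7 genes and among the rest 6.5. A genome sequence for the base composition of whole windows was not used here.

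**Figure D4:**
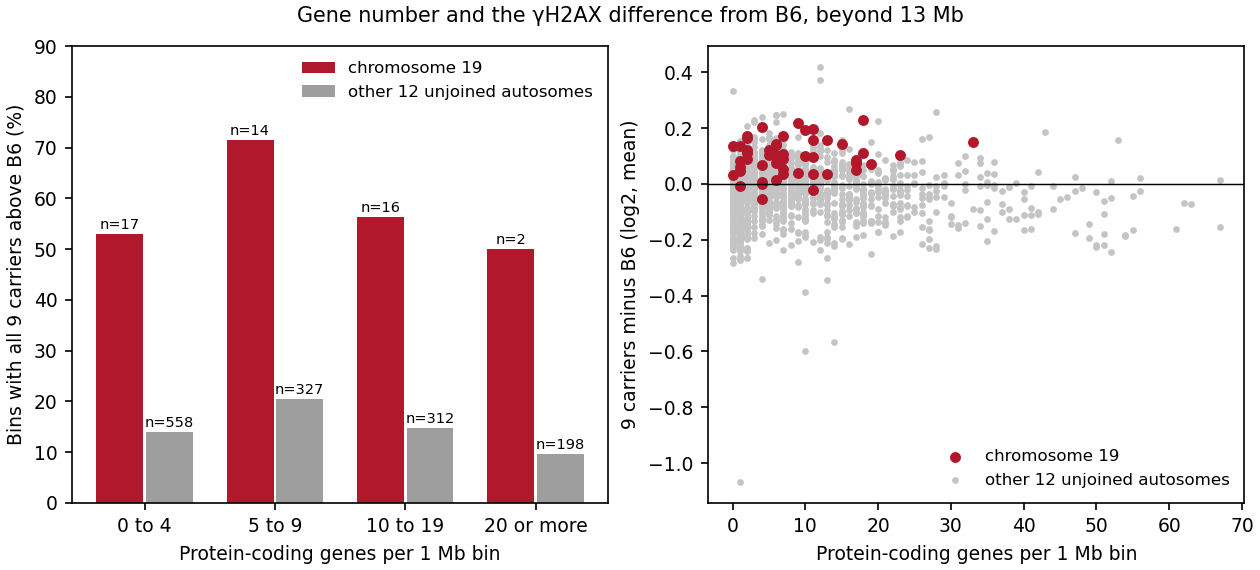
Left, percentage of 1 Mb bins with all 9 carriers above B6 by number of protein-coding genes, chromosome 19 beside the other 12 unjoined autosomes, with the number of bins over each bar. Right, mean difference of carriers from B6 (log2) against genes per bin; chromosome 19 bins lie mostly above 0 at every gene number it has.

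The inputs were measured the same way, with Cg at 6 weeks of age and 1Rb_M and B6 at 4. The 1Rb_M input was above the B6 input in 15 of 49 bins (30.6%, against 46.9% on the other 12 autosomes) and in 8 of the 29 bins. The Cg input was above it in 20 of 49 (40.8%, against 46.3%) and in 11 of the 29. The summed input level of chromosome 19 was -0.0013 in 1Rb_M and -0.0014 in Cg, against 0.011 in B6. With the carriers set over the 1Rb_M input and B6 over its own input, all 9 carriers were above B6 in 34 of 49 bins (69.4%), against 18.6% on the other 12 autosomes, or 20.4% weighted to the gene classes of chromosome 19.

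Of windows with a gene, the highest above B6 overlapped Fbxw4, at 1.58-fold. Its level was -0.14, -0.07 and -0.13 in 3Rb, 0.15, 0.05 and 0.02 in 1Rb_M, and 0.02, -0.04 and 0.03 in 1Rb_P, against -0.67 in B6. The 1Rb_M input exceeded the B6 input there by 0.65, and with every carrier set over the 1Rb_M input and B6 over the B6 input the difference was 0.0082. Mamdc2, 0.51 above B6, likewise had an input difference of 0.42 and was 0.090 above in that setting. A single carrier input was available for it, titled 1Rb_M but with the strain of the 1Rb_P cross, and none of 3Rb. At the window of Abcc2, a bile anion pump, Cox15 and Cutc, a copper-binding protein, inputs differed by 0.036. There the level was 0.85, 0.79 and 0.85 in 3Rb, 0.19, 0.08 and 0.22 in 1Rb_M, and 0.10, 0.33 and 0.28 in 1Rb_P, against -0.22 in B6. It was 0.63 above B6 on average, with 3Rb above both 1Rb crosses. Windows of Olfr1472, Olfr1474 and Olfr1475, of Hectd2, of Hpse2 (a heparanase-like protein), of Armh3 and of Shoc2 were 0.41 to 0.42 above B6, and 0.22 to 0.33 above it in that setting.

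All 9 carriers were below B6 in fewer windows, and the 8 with a gene that lay farthest below are named. Pdlim1, an actin-bound PDZ-LIM protein, was -0.34 from B6, Atrnl1 -0.29 and Lipo2, of an acid lipase family, -0.26. After them came Eno4 (an enolase of the sperm tail) with Shtn1 at -0.21, Fam160b1 at -0.18, the desaturase Scd2 at -0.17, the convertase Pcsk5 at -0.16 and the nuclear receptor Rorb at -0.16. At Atrnl1 the carriers were between -0.20 and 0.04 and B6 was at 0.18. The mean of carriers, with every carrier set over the 1Rb_M input and B6 over the B6 input, was below B6 at 6 of these 8 and 0.059 and 0.094 above it at Pcsk5 and Rorb.

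Comparisons among carriers did not use B6 and were tested. Region-wide, 3Rb was at 0.0998 ± 0.014 (SD, n = 3) and both 1Rb crosses together at 0.076 ± 0.026 (SD, n = 6), a difference of 0.023 (exact two-sided permutation p = 0.214, the smallest possible being 0.0238). With all autosomes as the zero the difference was -0.0079 (exact p = 0.667), and without 1Rb_M replicates 1 and 2 it was 0.0073 (exact p = 0.514). Without windows of unusual pooled input it was 0.029 (exact p = 0.0238).

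Against 1Rb_M, 3Rb γH2AX was higher in 135 and lower in 142 of 967 windows (edgeR quasi-likelihood test, adjusted p under 0.05 over all windows of the genome). Over all windows 17.9% were called higher and 20.2% lower, so neither count was above the background. Against 1Rb_P, 43 windows were higher and 89 lower, where 10.1% and 12.8% of all windows were called. Scaled by library totals and not by TMM, 24 windows were higher and 263 lower against 1Rb_M, where 4492 and 16177 of all 53118 windows were called. The median of all windows then stood at -0.085 in place of 0.014. Without 1Rb_M replicates 1 and 2, the median difference of the 967 windows was 0.024 against 1Rb_M and 0.015 against 1Rb_P. Over all windows it was 0.024 and 0.0026. Of 1 Mb bins, 13 of 49 had all 3Rb above all 6 1Rb libraries and 6 had all below, against 20.4% and 27.7% of bins on the other 12 unjoined autosomes. Between 1Rb_M and 1Rb_P, edgeR called 0 windows higher and 0 lower (88 at unadjusted p under 0.05; 0 calls and 15 at unadjusted p with DESeq2), where 0.299% and 1.06% of all windows were called. Without 1Rb_M replicate 2 there were 37 calls, 13 higher and 24 lower, where 1992 and 3675 of all 53118 windows were called. Without 1Rb_M replicate 3 there were 84, 17 higher and 67 lower, where 5317 and 8116 of all windows were called.

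Calls were also counted in stretches of 8 Mb, 160 windows each, and no difference between stretches was tested. Of all windows, 17.9% were called higher and 20.2% lower against 1Rb_M, and 10.1% and 12.8% against 1Rb_P. By library totals 4492 and 16177 of all 53118 windows were called against 1Rb_M, and 3734 and 6189 against 1Rb_P. With DESeq2 they were 7237 and 7732 against 1Rb_M, and 3166 and 3870 against 1Rb_P. From 13 to 21 Mb, 47 windows were higher and 1 lower against 1Rb_M, and 19 and 1 against 1Rb_P. From 21 to 29 Mb they were 12 and 19 against 1Rb_M, and 4 and 7 against 1Rb_P. From 29 to 37 Mb they were 27 and 4 against 1Rb_M, and 0 and 4 against 1Rb_P. From 37 to 45 Mb they were 21 and 36 against 1Rb_M, and 8 and 28 against 1Rb_P. From 45 to 53 Mb they were 13 and 32 against 1Rb_M, and 0 and 30 against 1Rb_P. From 53 to 61 Mb they were 12 and 50 against 1Rb_M, and 11 and 19 against 1Rb_P. From 13 to 21 Mb, library totals gave 5 higher and 1 lower against 1Rb_M, with a median difference of 0.0086 in place of 0.11, and 7 and 1 against 1Rb_P. DESeq2 called 15 and 1 there against 1Rb_M, and 2 and 1 against 1Rb_P. From 29 to 37 Mb the counts against 1Rb_M were 3 higher and 20 lower by library totals, and 7 and 3 with DESeq2. By library totals the median difference of that stretch was -0.046, against -0.085 over all windows. The 7 bins in which all 3Rb libraries were above all 1Rb libraries between 13 and 21 Mb include those from 17 to 19 Mb. There the mean of all carriers was close to B6, and all 3Rb libraries were above B6.

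**Figure D5:**
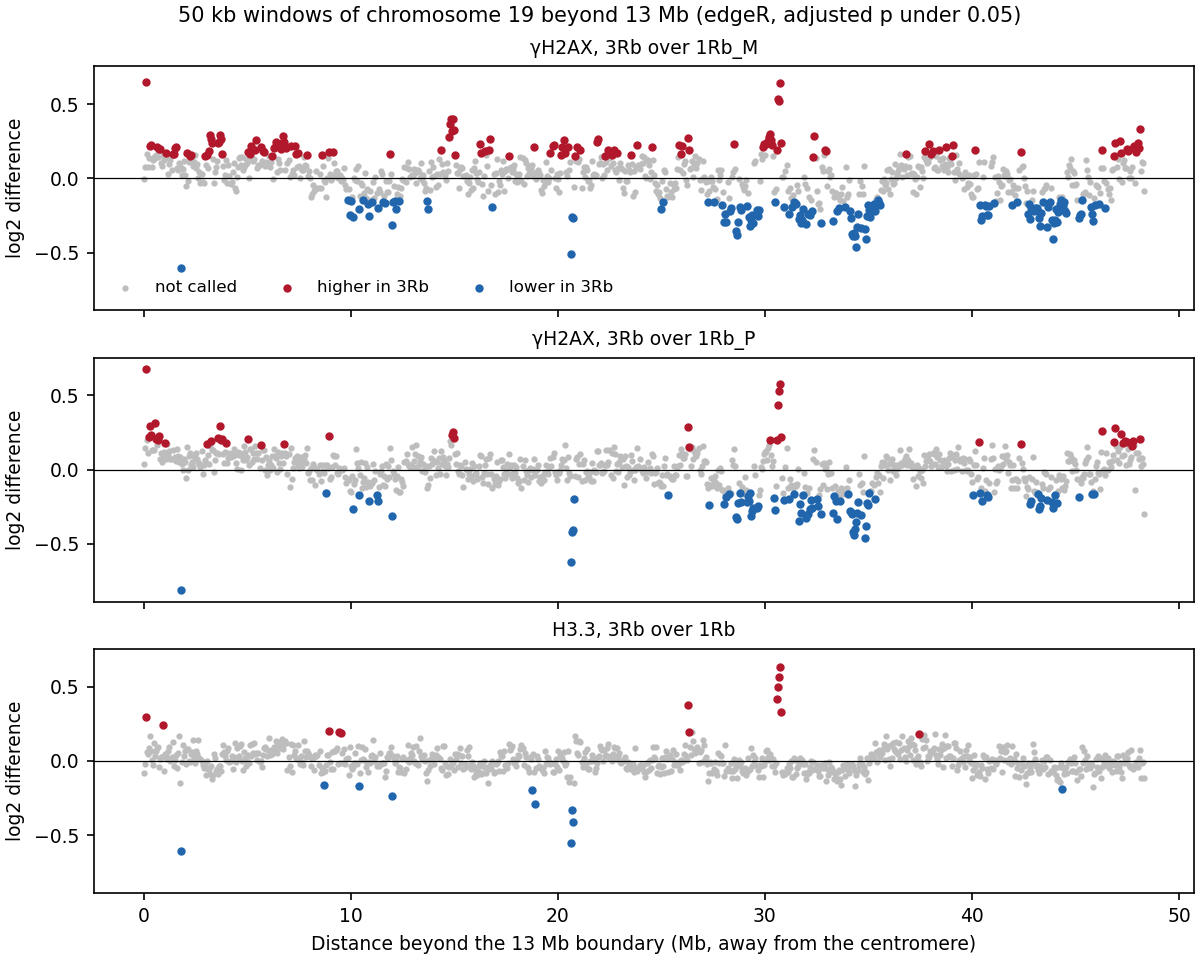
Log2 difference of each 50 kb window against distance beyond 13 Mb, for γH2AX of 3Rb over 1Rb_M and over 1Rb_P and for H3.3 of 3Rb over 1Rb. Coloured points are windows called by edgeR at adjusted p under 0.05, red higher and blue lower in 3Rb; γH2AX calls near 0 Mb are nearly all red, and single windows stand out in all panels.

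A few windows stood far apart in 3Rb in both marks. At Abcc2, Cox15 and Cutc, γH2AX was 24.6, 23.6 and 24.5 CPM (edgeR's depth-scaled counts) in 3Rb, 15.9, 14.8 and 15.8 CPM in 1Rb_M, and 14.7, 17.3 and 16.7 CPM in 1Rb_P, with no overlap. The log2 difference was 0.65 ± 0.067 (SE) against 1Rb_M (edgeR adjusted p = 8.5e-09) and 0.58 ± 0.068 against 1Rb_P. H3.3 in this window was 31.0, 29.7 and 31.0 CPM in 3Rb and 20.4, 19.5 and 19.3 CPM in 1Rb, a difference of 0.63 ± 0.051 (edgeR adjusted p = 7.52e-13). In the window before it, of Cox15 and Entpd7 (a nucleotide hydrolase), H3.3 was 36.7, 36.1 and 36.3 CPM in 3Rb and 25.2, 24.9 and 23.9 CPM in Cg. The H3.3 difference from Cg was 0.56 ± 0.054 there, in a region of 5 called windows.

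At Olfr1458 and Olfr1459, γH2AX was 21.2, 21.6 and 22.4 CPM in 3Rb, 14.5, 14.4 and 12.6 CPM in 1Rb_M, and 13.98, 13.3 and 13.3 CPM in 1Rb_P, a difference of 0.65 ± 0.059 and 0.68 ± 0.060. H3.3 there averaged 14.5 ± 0.86 CPM in 3Rb, against 11.2 ± 0.27 CPM in Cg (SD, n = 3 each), and the difference was 0.38 ± 0.057 (edgeR adjusted p = 2.21e-06). Here the 1Rb_M and Cg inputs exceeded the B6 input by 0.37 and 0.36, and reads of near-identical receptor genes cannot be told apart.

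The window 14800001 to 14850000, with no protein-coding gene, was the opposite. Its γH2AX was 14.1, 13.6 and 13.9 CPM in 3Rb, 19.7, 22.6 and 20.9 CPM in 1Rb_M, and 23.7, 24.2 and 25.2 CPM in 1Rb_P. The difference was -0.60 ± 0.071 against 1Rb_M and -0.81 ± 0.070 against 1Rb_P (edgeR adjusted p = 1.54e-10). H3.3 was 12.2, 13.4 and 13.2 CPM in 3Rb, against 18.1, 21.5 and 20.04 CPM in Cg, -0.60 ± 0.059. A second such window, 33650001 to 33700000 beside the Lipo genes, had γH2AX of 9.95, 9.14 and 9.21 CPM in 3Rb, 13.5, 14.5 and 12.3 CPM in 1Rb_M, and 14.4, 14.5 and 14.7 CPM in 1Rb_P. H3.3 in it was -0.55 ± 0.071 from 1Rb. No input of 3Rb was analysed here, so a difference in mappable DNA between strains was not tested at these windows.

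Other γH2AX regions differed by less and are named by their top window. Higher in 3Rb than in 1Rb_M were Rfx3 (0.40 ± 0.074, edgeR adjusted p = 8.06e-05), Zfp950 (0.33), Gnaq (0.29), which encodes a G protein subunit, and Vps13a (0.26). Higher than in 1Rb_P were Vps13a (0.29), Rab11fip2 (0.28) and Pdzd8 (0.26), factors of vesicle and lipid transport, and Fam204a (0.24). Lower in 3Rb was Sh3pxd2a, a podosome scaffold, at -0.46 ± 0.063 against 1Rb_M at its top window and -0.44 ± 0.069 against 1Rb_P at another of its windows. Lower against 1Rb_M were also Afap1l2 with Vwa2 (-0.41), Cfap58, of the sperm tail, with Itprip (-0.41), and Crtac1 (-0.32). Against 1Rb_P they were Gsto1 and Gsto2, glutathione transferases, with Itprip (-0.46), a window at 44650001 with no gene (-0.34), and Arl3, a small GTPase of cilia, with Trim8 (-0.33).

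Gene lists are given by their counts and medians, to be read against the 17.9% higher and 20.2% lower of all windows against 1Rb_M, and the 10.1% and 12.8% against 1Rb_P. Windows of these lists hold genes, and calls varied with gene number. On chromosome 19, windows with 0, 1 to 2 and 3 or more genes were lower against 1Rb_M in 8.04%, 17.5% and 29.7%. They were higher in 12.8%, 14.6% and 13.5%. Against 1Rb_P they were lower in 4.76%, 10.4% and 29.7% and higher in 2.68%, 5.39% and 5.41%. No difference between lists was tested. Of 18 windows with 33 olfactory receptor genes, 6 were higher and 0 lower in 3Rb than in 1Rb_M, and 7 and 0 against 1Rb_P. Their median difference was 0.14 and 0.16, against 0.024 and 0.015 over all 967 windows, and against 1Rb_M it was 0.041 by library totals. DESeq2 called 1 window higher in each contrast, and library totals 1 against 1Rb_M and 3 against 1Rb_P. Without 1Rb_M replicates 1 and 2, only 1 library of 1Rb_M remained, and only medians are given. The olfactory median was then 0.34 against 1Rb_M and 0.16 against 1Rb_P, with 0.024 and 0.015 over all 967 windows. Of 36 windows with 16 developmental transcription factors and signals, 2 were higher and 12 lower than in 1Rb_M, and 1 and 7 against 1Rb_P. Among them Pax2, of kidney and ear development, was at -0.30 and -0.29, Fgf8, a growth factor, at -0.30 and -0.30, Klf9 at -0.26 and -0.26, and Lbx1, of muscle precursors, at -0.25 and -0.26 against 1Rb_M and 1Rb_P. Their list median was -0.015 and -0.038, and with DESeq2 0 windows were higher and 8 lower against 1Rb_M, and 0 and 4 against 1Rb_P.

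Of 37 windows with 16 germ cell and gonad genes, 11 were higher and 4 lower than in 1Rb_M, and 4 and 2 against 1Rb_P. Their median against 1Rb_M was 0.067 with TMM but -0.037 by library totals, with 6 higher and 9 lower, and -0.022 without 1Rb_M replicates 1 and 2. With DESeq2 the counts were 7 and 3 against 1Rb_M, and 1 and 0 against 1Rb_P. Tdrd1, of the piRNA pathway, was at -0.28 and -0.22, Rfx3 at 0.40 and 0.25, and Nanos1, a germ cell RNA-binding protein, at 0.16 against 1Rb_P. Cyp17a1, of androgen synthesis, was at -0.21 against 1Rb_P. Of 33 windows with 17 genes of chromosome structure and DNA repair, 3 were higher and 3 lower than in 1Rb_M, and 0 and 3 against 1Rb_P, among them Stn1, of the telomere-capping CST complex, at -0.24 and -0.21, and the DNA polymerase Poll at -0.25 against 1Rb_P. By library totals 1 was higher and 9 lower against 1Rb_M, with a median of -0.11 in place of -0.012, and DESeq2 called 0 against 1Rb_P. In this list 22 windows (66.7%) had all 9 carriers above B6, against 41.0% of all windows. It was the highest share of any list. The share was 44.4% for the very long genes, 43.5% for Cyp2c, 38.9% for the developmental list and 37.8% for the germ cell list. It was 33.3% for the olfactory receptors and for Ifit, and 9.09% for the acid lipases. These shares are a description only, since the region was chosen by the same values.

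Of 23 windows with 15 Cyp2c genes, cytochromes that metabolise drugs and fatty acids, 3 were higher and 0 lower than in 1Rb_M, and 2 and 0 against 1Rb_P, led by Cyp2c29 and Cyp2c39 at 0.27 and 0.29. With library totals the Cyp2c median against 1Rb_M was -0.031 in place of 0.069, with 0 windows called, and DESeq2 called 2 higher against 1Rb_M and 1 against 1Rb_P. Of 11 windows with 9 acid lipase genes, 3 were higher and 2 lower than in 1Rb_M, and 0 and 2 against 1Rb_P, with Lipo2 at -0.26 and -0.42 and Lipo1 at -0.27 and -0.41. Their median against 1Rb_M was 0.056, and -0.043 by library totals, and both library totals and DESeq2 called 0 higher and 2 lower against 1Rb_M. The 3 windows of 6 interferon-induced Ifit genes had 0 calls with edgeR or DESeq2 in either contrast, 1 window at an unadjusted edgeR p under 0.05 against 1Rb_M and 0 against 1Rb_P, and medians of -0.043 and -0.016. Of 124 windows of 10 genes of 300 kb or longer, 12 were higher and 8 lower than in 1Rb_M, and 2 and 1 against 1Rb_P. Against 1Rb_M library totals gave 4 and 17 and DESeq2 8 and 2, and against 1Rb_P DESeq2 called 0. Hpse2 was at 0.30 and 0.20 and Sorcs3 at -0.22 and -0.20.

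H3.3, measured at another age and against another control strain than γH2AX, was close to its control on chromosome 19. Its level was 0.045, 0.041 and 0.038 in 3Rb, 0.035, 0.044 and 0.045 in 1Rb, and 0.046, 0.045 and 0.056 in Cg. The 6 carriers were 0.0077 lower than Cg (exact two-sided permutation p = 0.0476), and with all autosomes as the zero the exact p was 0.214. With the median window in place of the sum, the difference was -0.014 (exact p = 0.0238). Leaving out 1 carrier library gave an exact p of 0.0714, or 0.0357 without 1Rb replicate 3. Leaving out 1 Cg library gave 0.0714 to 0.143, but with so few Cg libraries the exact test cannot reach 0.05. All 6 carriers were above Cg in 0 of 49 bins and below it in 4, against 1.79% and 3.58% on the other 12 unjoined autosomes. By edgeR, 12 windows were higher and 14 lower in 3Rb than in Cg, where 3.34% and 6.16% of all windows were called. For 1Rb against Cg they were 4 and 2, where 1.08% and 2.62% were called. For 3Rb against 1Rb they were 13 and 10, where 2.08% and 4.02% were called.

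Named H3.3 windows are edgeR calls, of which DESeq2 also called 11 of 12 for 3Rb against Cg, 4 of 6 for 1Rb against Cg and 8 of 12 for 3Rb against 1Rb, all with the same sign. Dock8, a guanine nucleotide exchange factor of immune cells, was -0.32 ± 0.050 in 3Rb from Cg and -0.24 ± 0.051 from 1Rb, and Cfap43, of the sperm tail, -0.18 from Cg. Cyp2c29 with Cyp2c39 was 0.27 ± 0.074 from Cg and 0.38 ± 0.076 from 1Rb, the same window in which γH2AX was higher in 3Rb. A1cf, a cofactor of RNA editing, was -0.29 ± 0.054 in 3Rb from 1Rb, and 0.18 ± 0.054 in 1Rb from Cg. Sorcs1 was 0.17 in 3Rb and 0.18 in 1Rb from Cg, and Foxd4 with Cbwd1 was -0.30 in 1Rb from Cg. Fbxw4, the window highest above B6 in γH2AX, was 0.24 ± 0.056 in 1Rb from Cg (edgeR adjusted p = 0.0052), where the 1Rb_M input exceeded the B6 input by 0.65 and the Cg input exceeded it by 0.27.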

How the data were processed

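The deposited values are read counts per 50 kb window, 1 table per library, and the authors gave no normalization with them. CASAVA 1.8, BWA and mm10 are named in the submitters' processing notes. Their settings, and the treatment of duplicate or multiply mapped reads, are not given in the sources used here. Windows of repeated sequence can therefore differ by mapping alone.

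The windows, gene lists and rules were chosen with earlier results of these data known. Genes came from RefSeq (GRCm38.p6, the assembly of mm10) and sequences from its promoter table. Bin sums were divided by the pooled 3 inputs and set relative to the mean of the 13 autosomes in none of the translocations. For single windows 0.5 was added to each count. That RBF/Dnj joins other pairs besides 8 with 12 is background knowledge on that strain. An input is titled 1Rb_M although its strain is given as the 1Rb_P cross, and its title was followed.

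All groups with replicates entered 1 edgeR 4.0.16 fit per mark (R 4.3.3, 9 libraries each), with TMM scaling, a mean count of at least 10 and Benjamini-Hochberg adjustment over all windows. Each adjusted p is from edgeR unless DESeq2 1.42.0 is named. CPM values are edgeR's, and log2 differences have their SE. Steps were tested on simulated data. Region values were compared by exact permutation (scipy 1.17.1). Over 18 replicate pairs the chi-square per degree of freedom was 1.19 to 4.98, so no library was a copy of another. Intervals from counts cover counting error only.

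Named windows were the highest window of each run of bins, the 8 windows with a gene farthest above and below B6, the 6 called regions per contrast and direction with the smallest adjusted p (gaps of 1 window merged), and up to 4 members per gene list. Windows with pooled input over 5 or under 0.2 times the median (1503 of 54520) were not named. Alternatives were other scalings, filters, zero levels, inputs, bin sizes of 0.5 and 2 Mb, a replicate block and each library left out.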

Additional observations from a re-analysis of the deposited data

How the results depend on the processing

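The share of bins with all 9 carriers above B6, its gap to the gene-weighted share and the median window difference kept their direction under every alternative run: 46.9 to 72.0%, 35.2 to 57.8 points and, with all autosomes as the zero, a median of 0.073. With 1 library left out they were 59.2 to 63.3%, 42.6 to 46.3 points and 0.098 to 0.11. The region was chosen by its excess over B6 and every alternative reuses the single B6 library, so the kept direction is a description only. DESeq2 called 135 windows for 3Rb against 1Rb_M, where 7237 higher and 7732 lower were called over all 53118 windows. It called 47 against 1Rb_P, where 3166 and 3870 were called. The fit of only those groups called 246 against 1Rb_P, where 9651 and 10251 were called. Library totals gave 2 windows for 1Rb_M against 1Rb_P, where 391 higher and 174 lower were called over all windows. For H3.3 of 3Rb against Cg they gave 26 higher and 12 lower, where 2504 and 2958 were called. Without 1Rb_M replicates 1 and 2, chosen after seeing the data, 255 windows were called for 3Rb against 1Rb_P and 76 for 1Rb_M against 1Rb_P. With 1 library left out, 187 to 357 windows were called for 3Rb against 1Rb_M and 68 to 219 for 3Rb against 1Rb_P (68 and 79 without 1Rb_P replicates 1 and 2, 82 and 85 without 3Rb replicates 1 and 2, 219 without 1Rb_M replicate 3). They were 0 to 84 for 1Rb_M against 1Rb_P (37 without 1Rb_M replicate 2, 84 without 1Rb_M replicate 3). For H3.3 they were 16 to 44 for 3Rb against Cg (44 without 1Rb replicate 1, 16 without 3Rb replicate 2 or 3). They were 3 to 11 for 1Rb against Cg (3 without 1Rb replicate 2 or 3, 11 without Cg replicate 1). They were 15 to 43 for 3Rb against 1Rb (43 without 1Rb replicate 1, 15 without 1Rb replicate 3 or 3Rb replicate 3). Calls over all windows moved as well. For 3Rb against 1Rb_M, 6668 were higher and 8273 lower without 3Rb replicate 1, and 12112 and 12107 without 1Rb_M replicate 2. For 3Rb against 1Rb_P they were 3564 and 4388 without 1Rb_P replicate 1, and 8302 and 9908 without 1Rb_M replicate 3. For H3.3 of 3Rb against Cg they were 948 and 2254 without 3Rb replicate 2, and 2410 and 3551 without 1Rb replicate 1. Same-numbered libraries did not deviate together (r from -0.33 to 0.32 for γH2AX and -0.57 to 0.14 for H3.3), and the replicate block called 247, 113 and 0 windows for γH2AX of 3Rb against 1Rb_M, 3Rb against 1Rb_P and 1Rb_M against 1Rb_P, and 21, 4 and 20 for H3.3 of 3Rb against Cg, 1Rb against Cg and 3Rb against 1Rb. The region-wide γH2AX difference of 3Rb from 1Rb was -0.0079 with all autosomes as the zero, 0.029 (exact p = 0.0238) without windows of unusual input and 0.015 to 0.029 with 1 library left out. The H3.3 difference of carriers from Cg was -0.0089 (exact p = 0.214) with all autosomes, -0.0066 (exact p = 0.167) without windows of unusual input and -0.0099 to -0.0040 with 1 library left out, and 8 of those 9 exact tests missed 0.05. Fewer libraries raise the smallest p an exact test can give, and with a Cg library left out the H3.3 test could not reach 0.05. The cause of the other changes was not tested. The single, shallower B6 library limits every value set against it.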
